A study of Mus musculus with 12 samples.

Results

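The genes described here make cholesterol, take it up, sense it or pump it out of the cell. They were chosen by name, as 33 genes of the pathway, and 30 of them had a probe set of their own among the 19938 genes that could be named on the array. Levels were not analysed here for Acat2, Soat1 and Nr1h2. Acat2 is the thiolase that starts the pathway, Soat1 esterifies cholesterol for storage, and Nr1h2 encodes the receptor LXR beta. Each gene is represented by its brightest probe set, by mean over all arrays. The samples were quadriceps muscles of C57Bl/6 mice at 7 days of age, with 6 arrays labelled as cofilin-2 null (KO) and 6 labelled as wildtype littermates (WT). Each array held RNA from the muscle of a single mouse, and the arrays are named here by their labels, WT1 to WT6 and KO1 to KO6. Cofilin-2, the product of Cfl2, is the muscle protein that severs and disassembles actin filaments, and the null mice are a model of congenital myopathy. Whole muscle was used, so that a level reflects all cell types in it, and the labels do not say in which cells or at what stage Cfl2 was removed. The 12 muscle marker genes had mean log2 levels between 12.58 and 12.92 on every array.

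The labels of the 2 groups ran against the targeted gene, which was higher on the arrays labelled KO. Cfl2 had log2 levels of 12.31 to 12.43 under the KO label and of 4.92 to 7.71 under the WT label, a difference of 6.32 ± 0.36 (SE, limma, adjusted p = 1.98e-07). All directions here are labelled KO minus labelled WT as deposited. For cholesterol synthesis as a pathway, and for Srebf1 and Srebf2, that direction is the opposite of the one in the text of the study. The Cfl2 levels are those that would be seen if the KO and WT labels were exchanged, and an exchange would turn the sign of every difference given here and leave its size and p as they are. The brown fat gene Ucp1 and the leptin gene Lep were also higher under the KO label (2.75 ± 0.60 and 2.12 ± 0.36, SE). The study reports both of these genes, and Cfl2 itself, as lower in the null mice. Groups were kept as labelled, since no label settles this. A gene that was higher under the KO label is therefore not to be read as raised by the loss of cofilin-2. Array medians ranged from 6.35 to 6.46, and no pair of arrays held identical values. The array labelled WT4 stood apart in neutrophil and erythroid genes (mean log2 level 9.39, against 6.19 to 6.71 on the other arrays labelled WT). The array labelled KO5 stood apart in adipocyte markers (8.74, against 9.59 to 10.19 on the others labelled KO), and WT6 had the lowest weight when arrays were weighted by their fit (0.325, where an average array has 1). The number of arrays limits the precision.

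Cholesterol is built from acetyl-CoA through mevalonate and isoprenoids to squalene, which is closed into a ring and trimmed to cholesterol by a chain of membrane enzymes. When the membrane of the endoplasmic reticulum is poor in sterol, SCAP carries the transcription factor SREBP-2 to the Golgi, where it is cut and released to switch on these genes, and the INSIG proteins hold SCAP back when sterol is plentiful. Oxysterols that build up with cholesterol activate the LXR receptors, which switch on the exporters ABCA1 and ABCG1 and the ubiquitin ligase MYLIP that removes lipoprotein receptors from the cell surface. In growing muscle, cholesterol is needed for new membrane, including the transverse tubules and the membranes of dividing cells.

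Genes of cholesterol synthesis were higher on the arrays labelled KO, together with Insig1, Srebf2 and the sterol carrier Stard4. Mylip, Abca1, Abcg1 and Insig2 were lower. Of the 30 measured members, 21 were higher, 4 were lower and 5 did not pass the threshold (limma, adjusted p under 0.05 over all 21789 probe sets tested). Over all probe sets tested, 31.9% were called, with 19.5% higher and 12.4% lower. Calls in this comparison were therefore common, and the members' counts are to be read against those shares. Higher calls made up 61.1% of all calls, and 77.8% after arrays were centred on their medians, which changed no member's call. The log2 difference had a median of 0.43 over the 30 members and of -0.02 over all probe sets tested, whose 5th and 95th percentiles were -0.30 and 0.46. The levels of the 2 groups did not overlap for 14 members that were higher and 1 that was lower, against 10.5% and 4.92% of all probe sets. In whole tissue, fewer cells of a type and less RNA per cell cannot be told apart. Without the 3 arrays that stood apart (WT4, WT6 and KO5, left out together after the data were seen), 22 members were higher and 3 lower.

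**Figure D1:**
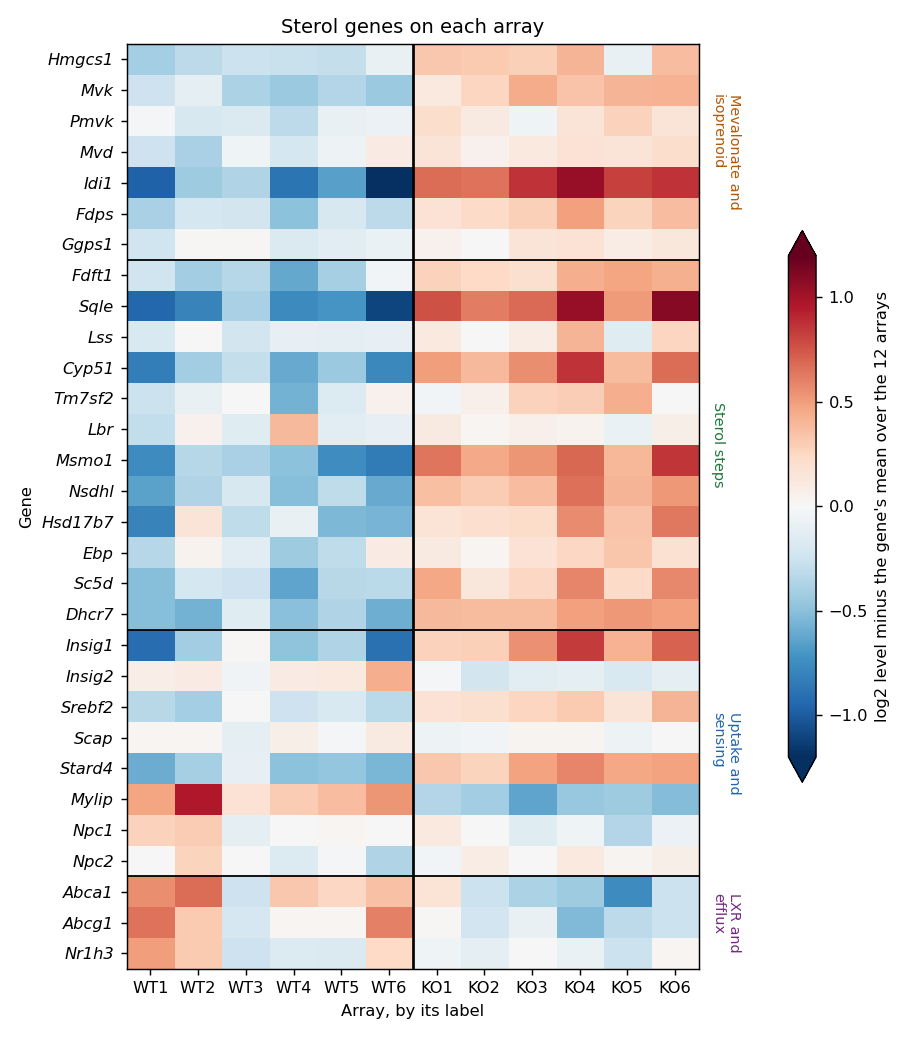
Log2 level of each of the 30 genes on each of the 12 arrays, shown as the deviation from the gene's own mean over the 12 arrays (colour scale, log2), with genes in rows by pathway step and arrays in columns by label. Genes of the mevalonate and sterol steps are mostly blue on the arrays labelled WT and red on those labelled KO, and Mylip, Abca1 and Abcg1 mostly the other way round.

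A feature that the choice of members did not use is the sequence before their start sites. RefSeq windows of the assembly GRCm38.p6, from 250 bases before to 50 after the start, were at hand for 27 of the 33 genes. Both strands were searched for TCACNCCAC, a form of the sterol regulatory element bound by SREBP, for its shorter form CACNCCAC, which every match of the longer one also contains, for CCAAT, the box of NF-Y, and for GGGCGG, the box of Sp1, which both act beside SREBP. CCAAT was found for 16 of 17 genes of the mevalonate and sterol steps, against 42.3% of 17492 protein-coding genes. For 15 of these 16 a match began within 100 bases before the start. That distance was not counted for other genes, so it cannot be called particular to these. Among genes with a single window the counts were 14 of 15 against 39.6%. All 17 members with a window that were higher held CCAAT, as did 2 of the 3 that were lower, Insig2 and Mylip. Lbr and Npc2, which did not pass, and Soat1, whose level was not analysed, held it too. No window of Acat2, Scap, Abca1, Nr1h3 or Nr1h2 did. GGGCGG was found for 15 of the 17 synthesis genes against 49.2%. It was also found for 7 of 7 genes of uptake and sensing and 1 of 3 of LXR and efflux. All 3 members with a window that were lower held it. The longer sterol element matched for 1 member, Hmgcs1, and for 1.41% of protein-coding genes, and the shorter form for 3 members (Hmgcs1, Insig1 and Acat2) and for 7.26%. These are matches of letters in a fixed window, and binding was not measured.

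The 250 bases before the start are shown for 5 genes that were higher and for Mylip, the largest fall, to let the boxes be seen in place. They lie in GRCm38.p6 at chr13:119690101-119690350 (plus strand) for Hmgcs1, chr5:28071162-28071411 (plus strand) for Insig1, chr13:8885356-8885605 (plus strand) for Idi1, chr8:64733579-64733828 (minus strand) for Msmo1, chr5:114444019-114444268 (plus strand) for Mvk and chr13:45389492-45389741 (plus strand) for Mylip. Each reads 5′ to 3′ along the gene, and capitals mark CCAAT on either strand and, for Hmgcs1 and Insig1, the sterol element or its shorter form.
Hmgcs1: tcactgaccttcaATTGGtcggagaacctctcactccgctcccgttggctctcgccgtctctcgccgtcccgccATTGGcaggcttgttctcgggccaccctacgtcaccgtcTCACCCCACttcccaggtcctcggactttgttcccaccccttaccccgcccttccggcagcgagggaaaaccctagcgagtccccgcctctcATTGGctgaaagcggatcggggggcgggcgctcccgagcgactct
Insig1: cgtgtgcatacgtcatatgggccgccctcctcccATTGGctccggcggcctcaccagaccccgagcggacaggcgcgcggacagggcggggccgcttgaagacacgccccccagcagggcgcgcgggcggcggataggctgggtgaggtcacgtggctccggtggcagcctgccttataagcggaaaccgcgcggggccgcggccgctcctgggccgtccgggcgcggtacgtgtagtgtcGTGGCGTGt
Idi1: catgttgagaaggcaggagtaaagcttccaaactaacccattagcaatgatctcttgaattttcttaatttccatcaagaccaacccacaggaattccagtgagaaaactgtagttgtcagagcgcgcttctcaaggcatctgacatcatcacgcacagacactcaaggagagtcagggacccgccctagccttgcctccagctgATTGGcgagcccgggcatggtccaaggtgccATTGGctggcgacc
Msmo1: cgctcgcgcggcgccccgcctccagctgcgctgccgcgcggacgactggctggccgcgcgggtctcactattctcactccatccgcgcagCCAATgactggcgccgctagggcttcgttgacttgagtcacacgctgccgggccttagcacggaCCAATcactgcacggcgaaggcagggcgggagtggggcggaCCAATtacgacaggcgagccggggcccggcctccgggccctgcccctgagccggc
Mvk: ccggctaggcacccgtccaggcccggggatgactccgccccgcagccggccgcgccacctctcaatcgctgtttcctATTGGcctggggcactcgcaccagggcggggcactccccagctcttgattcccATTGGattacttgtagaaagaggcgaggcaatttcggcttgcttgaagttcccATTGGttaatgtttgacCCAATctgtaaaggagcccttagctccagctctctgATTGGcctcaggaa
Mylip: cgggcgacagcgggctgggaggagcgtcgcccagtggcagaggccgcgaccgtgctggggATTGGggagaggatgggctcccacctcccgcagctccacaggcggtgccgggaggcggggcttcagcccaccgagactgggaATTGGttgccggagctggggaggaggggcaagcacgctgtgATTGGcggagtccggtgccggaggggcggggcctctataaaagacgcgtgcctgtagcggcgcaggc
Mvk holds 5 CCAAT matches in its window, while Idi1, with the largest difference of the members, holds 2. Mylip holds 3, the same as Msmo1, although the levels of these 2 genes differed between the groups in opposite directions.

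**Figure D2:**
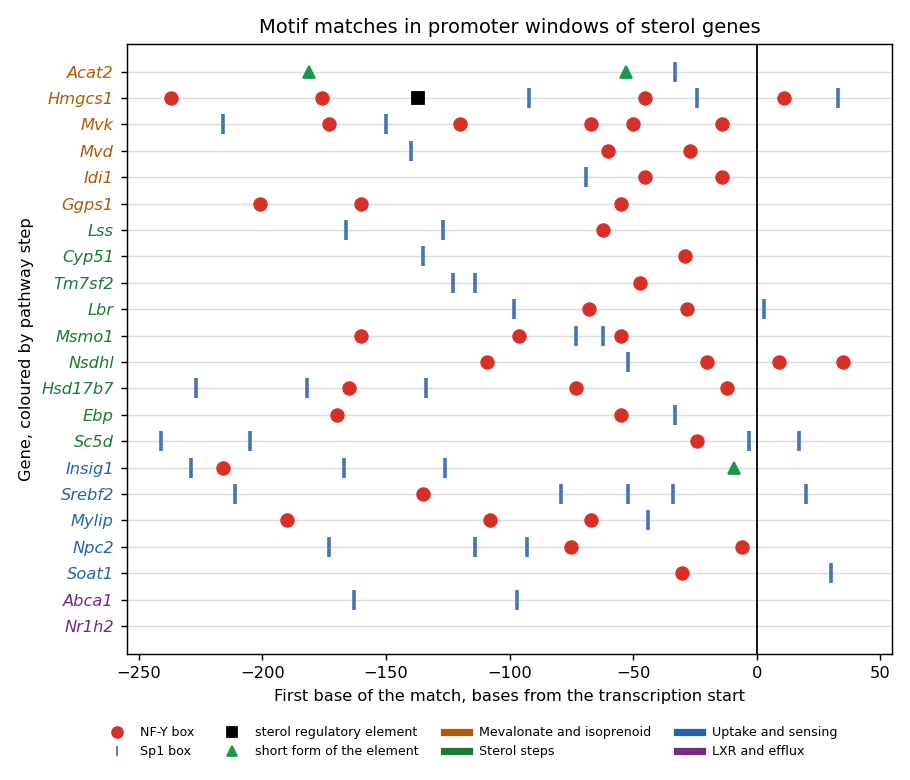
Position of motif matches (horizontal axis, bases from the transcription start) in the promoter windows of the 22 members with a single window (vertical axis, names coloured by pathway step). Red circles are the NF-Y box, blue ticks the Sp1 box, the square the sterol regulatory element of Hmgcs1 and triangles its shorter form. Most NF-Y boxes of the synthesis genes lie within 100 bases before the start, a distance not counted for other genes. Acat2, of the mevalonate steps, has none, and neither have Abca1 and Nr1h2.

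All 7 measured genes of the mevalonate and isoprenoid steps were higher, with a median log2 difference of 0.54. Idi1, the isomerase that makes the reactive isoprenoid unit for chain growth and whose upstream sequence is among those printed, had the largest difference of all members at 1.64 ± 0.17 (SE, adjusted p = 1.75e-05), a 3.12-fold higher level. Idi1 had log2 levels of 6.62, 7.16, 7.23, 6.71, 6.94 and 5.95 on WT1 to WT6, and of 8.26, 8.24, 8.46, 8.63, 8.41 and 8.46 on KO1 to KO6. The groups were apart by about 1 log2 unit, and the arrays labelled WT spread more widely (SD 0.47 against 0.14), with WT6 the lowest. A second Idi1 probe set differed by no more than 0.13 from the first on any array and gave the same difference of 1.64. Whether these probe sets share probes was not checked, so the second is not taken as an independent measurement. Mvk, the kinase that first phosphorylates mevalonate, lay at 7.68, 7.76 and 8.01 (lowest, median and highest log2 level) on the arrays labelled WT and at 8.24, 8.50 and 8.57 on those labelled KO, a log2 difference of 0.66 ± 0.07 (SE, adjusted p = 1.67e-05). Fdps, the synthase of farnesyl diphosphate, lay at 8.60, 8.83 and 8.90 (lowest, median and highest log2 level) on the arrays labelled WT and at 9.26, 9.37 and 9.58 on those labelled KO, a difference of 0.60 ± 0.06 (SE, adjusted p = 1.88e-05). The groups of Mvk and Fdps did not overlap.

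Hmgcs1, the cytosolic synthase that feeds the pathway with HMG-CoA, lay at 9.36, 9.49 and 9.68 (lowest, median and highest log2 level) on the arrays labelled WT and at 9.68, 10.09 and 10.17 on those labelled KO. Its log2 difference was 0.54 ± 0.08 (SE, adjusted p = 0.000184), and the groups met at a single value because the array labelled KO5 stood at 9.68, as did WT6. Pmvk, Mvd and Ggps1 had smaller differences. Pmvk, the next kinase after Mvk, differed by 0.29 ± 0.06 (SE, adjusted p = 0.0027), and Mvd, the decarboxylase that yields isopentenyl diphosphate, by 0.28 ± 0.07 (SE, adjusted p = 0.00684). Ggps1, which makes the geranylgeranyl chain for protein anchors and so lies on a side branch, differed by 0.20 ± 0.05 (SE, adjusted p = 0.00868). For each of these 3 genes at least 1 array labelled KO lay within the range of those labelled WT. With quantile normalization the calls of Mvd and Ggps1 were lost (differences of 0.21 and 0.14, adjusted p = 0.0508 and 0.0505).

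Of the 12 genes of the sterol steps, 11 were higher and 1 did not pass, with a median log2 difference of 0.73. Sqle, the squalene epoxidase and a rate-limiting enzyme of this branch, differed by 1.57 ± 0.12 (SE, adjusted p = 1.77e-06), a 2.97-fold higher level. Sqle had log2 levels of 6.82, 6.96, 7.38, 7.00, 7.06 and 6.66 on WT1 to WT6, and of 8.53, 8.38, 8.45, 8.81, 8.28 and 8.86 on KO1 to KO6. The lowest array labelled KO lay 0.90 log2 units above the highest labelled WT. Msmo1 and Cyp51 both act in the removal of methyl groups from lanosterol, and they followed Sqle in size with differences of 1.19 ± 0.10 (SE, adjusted p = 3.12e-06) and 1.12 ± 0.10 (SE, adjusted p = 7.23e-06). Msmo1 had log2 levels of 7.19, 7.60, 7.55, 7.45, 7.20 and 7.10 on WT1 to WT6, and of 8.58, 8.40, 8.47, 8.63, 8.34 and 8.80 on KO1 to KO6. Cyp51 had log2 levels of 6.56, 6.98, 7.11, 6.79, 6.95 and 6.62 on WT1 to WT6, and of 7.90, 7.78, 7.95, 8.26, 7.77 and 8.06 on KO1 to KO6. On both genes every array labelled KO lay above every array labelled WT.

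Dhcr7, which makes cholesterol itself in the last reduction, differed by 0.89 ± 0.07 (SE, adjusted p = 1.77e-06). Among the genes of the sterol steps, its levels and those of Lbr were the most even on the arrays labelled KO (SD 0.06 for each). Dhcr7 had log2 levels of 7.27, 7.21, 7.63, 7.28, 7.42 and 7.19 on WT1 to WT6, and of 8.17, 8.16, 8.16, 8.27, 8.30 and 8.27 on KO1 to KO6. Nsdhl, the dehydrogenase that works with Msmo1, differed by 0.87 ± 0.08 (SE, adjusted p = 8.47e-06). Nsdhl had log2 levels of 8.24, 8.52, 8.69, 8.37, 8.58 and 8.28 on WT1 to WT6, and of 9.24, 9.19, 9.25, 9.54, 9.29 and 9.40 on KO1 to KO6. Neither gene's groups overlapped, and the array labelled WT3 was the highest of its group for both. Sc5d, the desaturase before Dhcr7, lay at 7.79, 8.10 and 8.21 (lowest, median and highest log2 level) on the arrays labelled WT and at 8.56, 8.78 and 9.01 on those labelled KO, a difference of 0.75 ± 0.09 (SE, adjusted p = 5.86e-05). Fdft1, the squalene synthase that commits the chain to sterols, lay at 9.55, 9.79 and 10.13 (lowest, median and highest log2 level) on the arrays labelled WT and at 10.35, 10.52 and 10.63 on those labelled KO, a difference of 0.68 ± 0.08 (SE, adjusted p = 6.05e-05), and its second probe set gave 0.75. Hsd17b7, a ketoreductase of the demethylation complex, lay at 7.19, 7.58 and 8.15 (lowest, median and highest log2 level) on the arrays labelled WT and at 8.16, 8.28 and 8.63 on those labelled KO, a difference of 0.71 ± 0.14 (SE, adjusted p = 0.00191). The groups of these 3 genes did not overlap either, for Hsd17b7 by only 0.01.

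The remaining sterol enzymes moved least. Ebp, a sterol isomerase, differed by 0.36 ± 0.09 (SE, adjusted p = 0.00743), Tm7sf2, a sterol reductase, by 0.34 ± 0.11 (SE, adjusted p = 0.0237), and Lss, which closes squalene epoxide into lanosterol, by 0.24 ± 0.08 (SE, adjusted p = 0.0302), and for each of them the groups overlapped. Lss no longer passed when WT1, WT3, WT5, KO4 or KO6 was left out, and Tm7sf2 when KO4 or KO5 was, with adjusted p between 0.0507 and 0.0701. Both calls were also lost with the methods' t-test (adjusted p = 0.0569 for Lss and 0.0542 for Tm7sf2). Lbr, which has the same reductase activity as Tm7sf2 and also anchors chromatin to the nuclear lamina, did not pass at 0.07 ± 0.09 (SE, adjusted p = 0.562), with a 95% interval from -0.12 to 0.27. Lbr had log2 levels of 8.79, 9.13, 8.94, 9.47, 8.96 and 8.98 on WT1 to WT6, and of 9.19, 9.11, 9.14, 9.12, 9.0 and 9.15 on KO1 to KO6. The array labelled WT4 lay above all others, and without it the Lbr difference was 0.16 with an adjusted p of 0.0486. The enzymes of neighbouring steps thus differed by unequal amounts, from 1.57 for Sqle to 0.24 for Lss, the enzyme that acts next.

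**Figure D3:**
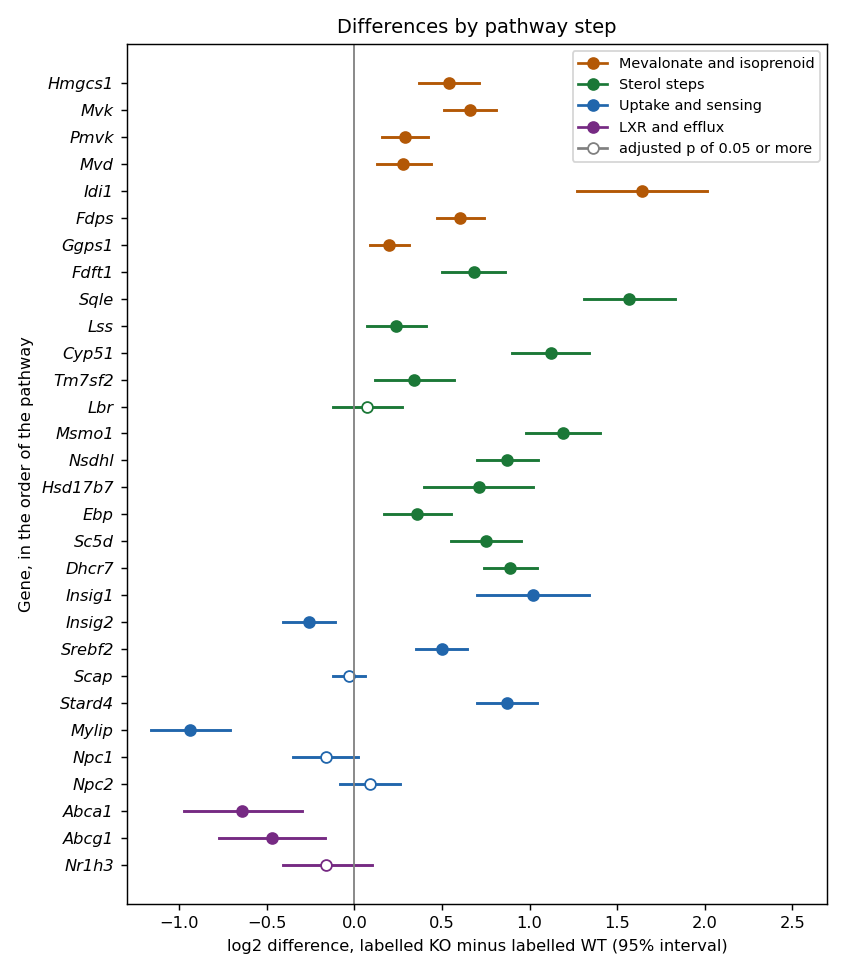
Log2 difference between the arrays labelled KO and those labelled WT (horizontal axis) for the 30 genes in pathway order (vertical axis), with the 95% interval of the fit (n = 6 arrays in each group); open circles did not pass an adjusted p of 0.05. Idi1 and Sqle lie farthest to the right at 1.64 and 1.57, and Mylip farthest to the left at -0.94.

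Among the genes of uptake and sensing, 3 were higher, 2 were lower and 3 did not pass. Insig1, itself a target of SREBP-2 that retains SCAP in the endoplasmic reticulum, differed by 1.02 ± 0.15 (SE, adjusted p = 0.000195), a 2.03-fold higher level. Insig1 had log2 levels of 8.38, 8.88, 9.31, 8.81, 8.93 and 8.40 on WT1 to WT6, and of 9.57, 9.58, 9.84, 10.13, 9.71 and 10.0 on KO1 to KO6. The lowest array labelled KO stood above the highest labelled WT, which was WT3. Insig2, the second retention protein, went the other way at -0.26 ± 0.07 (SE, adjusted p = 0.00956). Insig2 had log2 levels of 10.05, 10.07, 9.93, 10.07, 10.09 and 10.41 on WT1 to WT6, and of 9.95, 9.75, 9.85, 9.86, 9.79 and 9.86 on KO1 to KO6. Its groups overlapped only in that KO1 (9.95) lay above WT3 (9.93), and WT6 was the highest array. Without WT4, WT6 and KO5 the Insig2 difference was -0.18 (adjusted p = 0.0254).

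Srebf2, which encodes SREBP-2, lay at 8.82, 8.94 and 9.23 (lowest, median and highest log2 level) on the arrays labelled WT and at 9.38, 9.45 and 9.63 on those labelled KO. Its groups did not overlap, and the log2 difference was 0.50 ± 0.07 (SE, adjusted p = 0.000113). Stard4, a soluble carrier that moves cholesterol between membranes and a known SREBP-2 target, differed by 0.87 ± 0.08 (SE, adjusted p = 6.91e-06). Stard4 had log2 levels of 6.85, 7.05, 7.35, 6.96, 6.99 and 6.90 on WT1 to WT6, and of 7.77, 7.72, 7.93, 8.04, 7.91 and 7.93 on KO1 to KO6. The levels on the arrays labelled KO were 1.82-fold higher and lay within 0.32 log2 units of each other. Scap, the escort of SREBP-2, did not pass at -0.03 ± 0.04 (SE, adjusted p = 0.615), with a 95% interval from -0.12 to 0.06. Scap had log2 levels of 8.92, 8.92, 8.79, 8.97, 8.88 and 9.01 on WT1 to WT6, and of 8.84, 8.87, 8.93, 8.93, 8.84 and 8.90 on KO1 to KO6. The levels of both groups lay within 0.22 log2 units, and the sign of this small difference turned when arrays were centred on their medians (0.02).

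Mylip, the ubiquitin ligase that marks lipoprotein receptors for degradation, had the largest fall of the members at -0.94 ± 0.10 (SE, adjusted p = 2.79e-05), a 1.91-fold lower level. Mylip had log2 levels of 9.72, 10.21, 9.42, 9.56, 9.62 and 9.78 on WT1 to WT6, and of 8.90, 8.83, 8.62, 8.80, 8.82 and 8.73 on KO1 to KO6. All 6 arrays labelled KO lay below all 6 labelled WT, by at least 0.52 log2 units, and WT2 was the highest. Npc1 and Npc2 release cholesterol from the lysosome, and neither passed. Npc1 differed by -0.16 ± 0.08 (SE, adjusted p = 0.157) with a 95% interval from -0.35 to 0.02. Npc1 had log2 levels of 9.54, 9.57, 9.16, 9.27, 9.29 and 9.26 on WT1 to WT6, and of 9.38, 9.27, 9.12, 9.22, 8.92 and 9.20 on KO1 to KO6. Npc2 differed by 0.09 ± 0.08 (SE, adjusted p = 0.416) with an interval from -0.08 to 0.26. Npc2 had log2 levels of 8.71, 8.97, 8.71, 8.54, 8.69 and 8.35 on WT1 to WT6, and of 8.67, 8.80, 8.70, 8.82, 8.74 and 8.78 on KO1 to KO6. For both genes the groups overlapped over much of their range.

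**Figure D4:**
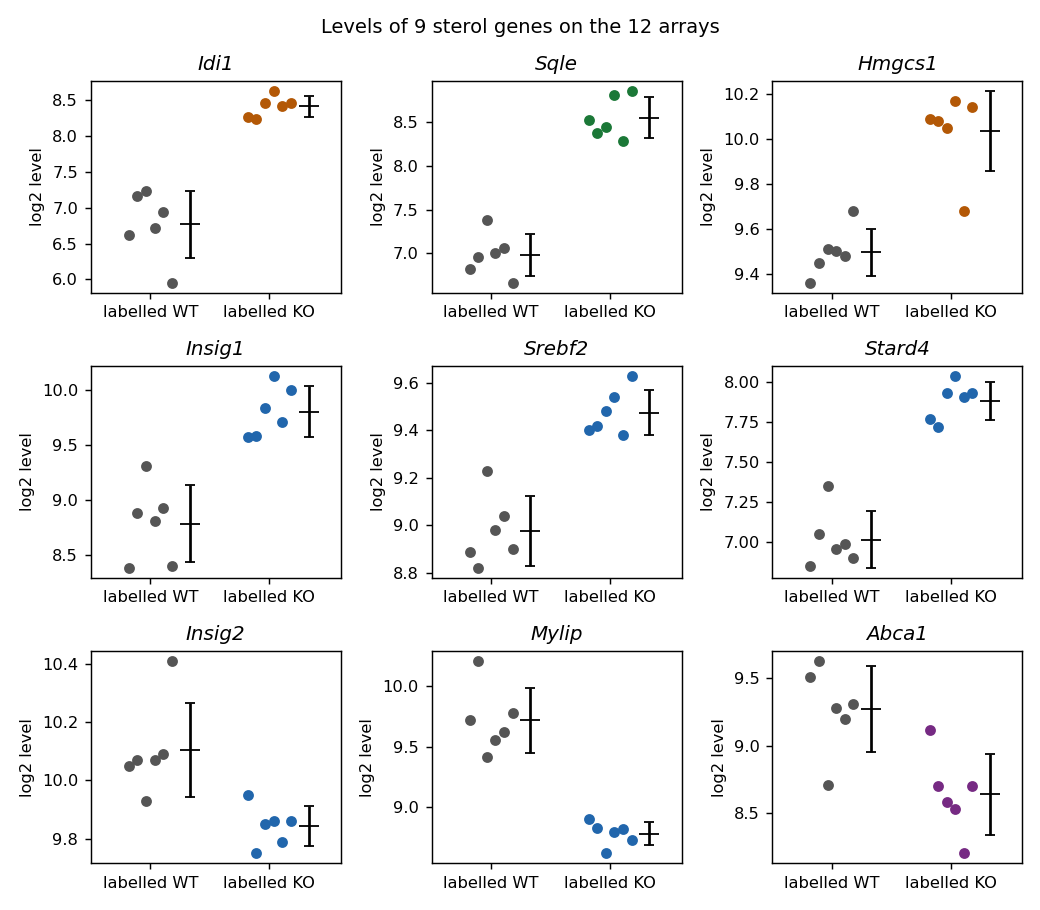
Log2 level of 9 genes (vertical axis) on the 6 arrays labelled WT and the 6 labelled KO (horizontal axis); points are arrays and the bars give mean ± SD of each group. Idi1, Sqle, Insig1, Srebf2 and Stard4 do not overlap between groups, Hmgcs1 touches at 9.68 through the array labelled KO5, Mylip is lower without overlap, and Insig2 and Abca1 are lower with overlap.

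No gene of the LXR and efflux group was higher, 2 of 3 were lower and 1 did not pass, with a median log2 difference of -0.47. Abca1, the exporter that loads cholesterol onto apolipoproteins, differed by -0.64 ± 0.16 (SE, adjusted p = 0.00665), a 1.55-fold lower level. Abca1 had log2 levels of 9.51, 9.63, 8.71, 9.28, 9.20 and 9.31 on WT1 to WT6, and of 9.12, 8.70, 8.58, 8.53, 8.20 and 8.70 on KO1 to KO6. The array labelled WT3 lay low in its group and KO1 high, so that the groups overlapped. Abcg1, which passes cholesterol to mature lipoproteins, differed by -0.47 ± 0.14 (SE, adjusted p = 0.0198). Abcg1 had log2 levels of 8.51, 8.17, 7.66, 7.88, 7.88 and 8.46 on WT1 to WT6, and of 7.87, 7.63, 7.77, 7.33, 7.54 and 7.60 on KO1 to KO6. WT1 and WT6 were its highest arrays and WT3 the lowest of those labelled WT. The Abcg1 call was lost with the methods' t-test (adjusted p = 0.0508) and without the arrays labelled WT4, WT6 and KO5 (-0.42, adjusted p = 0.0776). Nr1h3, which encodes LXR alpha, did not pass at -0.16 ± 0.12 (SE, adjusted p = 0.327), with a 95% interval from -0.41 to 0.10. Nr1h3 had log2 levels of 7.57, 7.38, 6.82, 6.90, 6.89 and 7.30 on WT1 to WT6, and of 7.01, 6.95, 7.07, 6.98, 6.81 and 7.09 on KO1 to KO6. WT1, WT2 and WT6 were the highest arrays for Nr1h3, and for Abca1 and Abcg1 as well.

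Within each group, some arrays ran higher or lower across many members. For the 19 measured genes of the mevalonate and sterol steps, the mean deviation from each gene's own mean over the 12 arrays ran from -0.47 (WT1) to -0.22 (WT3) on the arrays labelled WT and from 0.23 (KO2) to 0.48 (KO4) on those labelled KO. KO4 was the highest array of its group for 8 of the 19 genes and the lowest for 0, while KO2 was the highest for 0 and the lowest for 6, and KO5 the highest for 5 and the lowest for 6. Among the arrays labelled WT, WT1 and WT4 were each the lowest for 6 genes, and WT2, WT3 and WT6 each the highest for 5. The 4 members that were lower on the arrays labelled KO had their lowest level among the arrays labelled WT on WT3 in 4 of 4 cases, and their highest among those labelled KO on KO1 in 4 of 4. WT3, with the highest mean deviation of synthesis genes in its group, was thus also the array with the lowest Insig2, Mylip, Abca1 and Abcg1 in it. It also had the highest Cfl2 level of that group (7.71, against 4.92 to 6.52 on the others labelled WT).

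Other genes of the pathway were looked up in lists taken from textbook knowledge. Of 83 measured genes in them 33 were higher and 8 lower (49.4% called, against 31.9% of all probe sets). The list of fatty acid synthesis genes under SREBP-1 had 14 higher and 1 lower of 16 (93.8% called), with a median log2 difference of 0.57. Thrsp, a regulator of lipogenesis, differed by 1.42 ± 0.12, Scd1, the stearoyl-CoA desaturase, by 0.97 ± 0.22, the elongase Elovl6 by 0.80 ± 0.09 and the fatty acid synthase Fasn by 0.80 ± 0.13 (SE). The lower gene was Acss2 (-0.63 ± 0.11 SE), whose groups did not overlap. KO5, the array poorest in fat cell genes, had the lowest list mean under the KO label (9.33). The list means under the WT label were 8.88 to 9.07. Fasn and Scd1 on KO5 (8.63 and 9.87) lay below the highest array labelled WT (8.69 and 9.99). For 9 of the 16 genes of the list, every array labelled KO lay above every array labelled WT, against 10.5% of all probe sets. The part of fat cells in this list was not tested. In the list of SREBP control and electron supply, 3 were higher and 2 lower of 14 (35.7% called, 21.4% higher), shares near those of all probe sets (31.9% and 19.5%). Cyb5b, an outer mitochondrial cytochrome, differed by 0.84 ± 0.11, Erlin1, which restrains SREBP activation, by 0.46 ± 0.08, Srebf1 by 0.45 ± 0.07 and the reductase Cyb5r3 by -0.22 ± 0.05 (SE). The protease gene Mbtps1, which makes the first cut in SREBP, did not pass (0.01 ± 0.04 SE).

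In the list of sterol transport, 7 were higher and 2 lower of 26 (34.6% called), a share near that of all probe sets (31.9%), with a median log2 difference of 0.06. Tmem97, a partner of NPC1 whose gene responds to SREBP, differed by 1.0 ± 0.09, the caveolar gene Cav1 by 0.59 ± 0.10, Stard3nl by 0.44 ± 0.05 and Osbpl1a, an oxysterol-binding relative, by 0.41 ± 0.04 (SE). In the isoprenoid branches 7 were higher and 1 lower of 14 (57.1% called, against 31.9% of all probe sets), with a median of 0.15. The subunits Rabggtb and Rabggta of the enzyme that prenylates Rab proteins went in opposite directions (-0.44 ± 0.08 and 0.28 ± 0.05 SE), and Aacs and Pdss2 differed by 0.27 ± 0.09 and 0.20 ± 0.06 (SE). In the oxysterol and LXR partner list 2 were higher and 2 lower of 13, a share near that of all probe sets, with a median of -0.05. Its called genes were Hsd3b7 (0.36 ± 0.06 SE) and Cyp27a1 (0.35 ± 0.11 SE), which act in bile acid synthesis, Rxrb, a partner of LXR (-0.20 ± 0.06 SE), and Sult2b1 (-0.13 ± 0.04 SE).

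Markers of other cell types were measured on the same arrays. Their counts are to be read against the 31.9% of all probe sets that were called. The share called was 88.9% for cell division genes and 55.6% for adipocyte markers. Of 9 cell division genes 8 were higher and 0 lower, and their mean level ran from 8.05 to 9.15 under the WT label and from 9.23 to 9.46 under the KO label. Among the arrays labelled KO, KO4 was the highest both in this list (9.46) and in the mean deviation of the 19 synthesis genes (0.48), and KO2 was the lowest in both (9.23 and 0.23). The order of the others differed. KO5 was second highest in this list (9.43) with a synthesis deviation of 0.30, and KO6 second highest in that deviation (0.44) with a list level of 9.34. Among those labelled WT, WT3 had the second highest level of this list (9.02) and the highest synthesis deviation (-0.22). WT4 and WT6, with the highest and the lowest level of this list in their group (9.15 and 8.05), had synthesis deviations of -0.40 and -0.39. Of 9 adipocyte markers 4 were higher and 1 lower, with list means of 8.83 to 9.65 under the WT label and 8.74 to 10.19 under the KO label. On KO5, with the lowest adipocyte level of all arrays (8.74), the mean deviation of the synthesis genes was 0.30, against 0.23 to 0.48 on the others labelled KO. KO5 was the lowest array of its group for 6 of these 19 genes, Hmgcs1, Sqle, Lss, Cyp51, Lbr and Msmo1, and the highest for 5, Pmvk, Fdft1, Tm7sf2, Ebp and Dhcr7.

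Of 12 macrophage markers, a cell type rich in Abca1, 6 were higher and 1 lower, with list means of 7.73 to 8.16 under the WT label and 8.06 to 8.2 under the KO label. Adgre1 differed by 0.88 ± 0.09 (SE) and Gpnmb, a gene of lipid-laden macrophages, by -0.87 ± 0.14 (SE). Of 12 genes of Schwann cells and myelin, which need much cholesterol, 2 were higher and 0 lower, with list means of 7.49 to 7.83 and 7.38 to 7.82 on the arrays labelled WT and KO. Fibroblast markers were higher in 6 and lower in 1 of 7, endothelial markers in 4 and 0 of 7, and brown adipocyte genes in 2 and 0 of 6, and of 6 neutrophil and erythroid genes 0 were called. The share called was 33.3% for brown adipocyte genes, near the 31.9% of all probe sets, and 16.7% for Schwann cell and myelin genes, below it. It was 58.3% for macrophage, 57.1% for endothelial and 100% for fibroblast markers. The 12 muscle markers went both ways, with 2 higher, the fast myosin gene Myh4 (1.70 ± 0.27 SE) and Actn3 (0.54 ± 0.07 SE), and 5 lower, of which the desmin gene Des differed most (-0.25 ± 0.04 SE). The part of these cell types in the sterol gene differences was not tested.

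**Figure D5:**
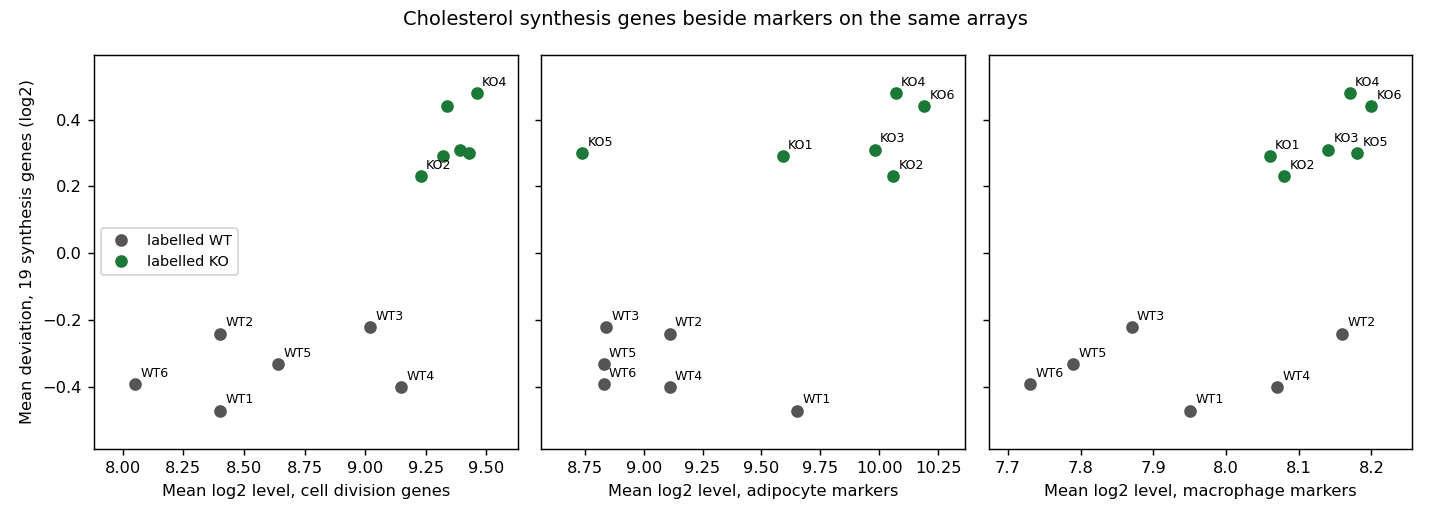
Mean deviation of the 19 genes of cholesterol synthesis from their own means over the 12 arrays (vertical axis, log2) against the mean log2 level of 9 cell division genes, 9 adipocyte markers and 12 macrophage markers (horizontal axes); each point is an array, and some arrays labelled KO are left unnamed in the left panel for space. In cell division level and synthesis deviation, KO4 is highest of its group in both (9.46 and 0.48) and KO2 lowest in both (9.23 and 0.23). The others keep no such order, with KO5 at 9.43 and 0.30 and KO6 at 9.34 and 0.44. WT3 lies at 9.02 and -0.22 and WT4 at 9.15 and -0.40. KO5 lies apart in adipocyte level (8.74), at 0.30 in synthesis genes.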

How the data were processed

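Total RNA of quadriceps was hybridized to Affymetrix Mouse Gene 1.0 ST arrays. Per the study's methods, GCOS extracted the features and Affymetrix Power Tools gave a value per gene, with the version, the summary algorithm and the build not stated in those methods. Values as deposited ran from 3.11 to 14.02 with even medians and were read as log2 levels that the authors had normalized. Groups came from the sample titles. Probe sets were named through the platform annotation, with symbols updated by gene identifier from RefSeq (21698 matched). Of 35556 probe sets, 21789 had 1 symbol and were tested, 1621 had several and 12146 were not listed.

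Differences were fitted in R (version 4.3.3) by limma (version 3.58.1, lmFit then eBayes), with neither covariates nor a filter, and p-values were adjusted by Benjamini-Hochberg over all tested probe sets at 0.05. The fit was checked on simulated data. Folds are the log2 difference on the linear scale, and intervals are at 95%. Levels of different genes were not compared. Members and lists were chosen with earlier results of these data known. Genes named are all members, the targeted gene, Srebf1 and up to 4 called genes with the largest differences in each other pathway list. Ucp1, Lep, Acss2, Mbtps1, Adgre1, Gpnmb, Myh4, Actn3 and Des were chosen after their values were seen. Levels on every array are given for the largest differences and for members that were lower or did not pass. The alternatives tried were quantile normalization, centring on medians, a replicate block, dropping the dimmest probe sets, testing all rows, an intensity trend with robust variance, array weights, the t-test of the methods, averaging a gene's probe sets and leaving out each array.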

Additional observations from a re-analysis of the deposited data

Results flagged for a closer look

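Within each group of 6 arrays, the highest and lowest level of each member was compared with the rest. Of the 60 sets of 1 gene in 1 group, 2 held an array far from the others, where chance gives about 3 (1 in 20). The Hmgcs1 level on the array labelled KO5 was 9.68, against 10.05 to 10.17 on the other arrays labelled KO. The Insig2 level on the array labelled WT6 was 10.41, against 9.93 to 10.09 on the others labelled WT.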

How the results depend on the processing

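Of the 30 members, 22 kept their call and direction in all 22 alternative settings, and no called member changed direction in any of them. The members called ranged from 22 to 26 (25 in the fit reported), and from 23 to 26 when single arrays were left out. With arrays centred on their medians, 1557 probe sets were lower in place of 2702, and 4 of the other pathway genes in place of 8. In the LXR and efflux group 1 gene was lower in place of 2 with the methods' t-test and without the arrays labelled WT4, WT6 and KO5, a setting chosen after seeing the data. Members that had not passed turned in sign for Scap (0.02 with centring and 0.02 without those 3 arrays) and Npc2 (-0.02 without them). Lbr passed without those 3 arrays (0.19, adjusted p = 0.0452). The methods' t-test called 9003 probe sets and 25 members at the nominal threshold of 0.05, and 6342 and 22 after adjustment. The methods speak of littermate pairs, but no label ties the numbers in the titles to litters, and arrays with the same number deviated together with correlations from -0.22 to 0.17. With the number as a replicate block, 6074 probe sets and 25 members were called, and no member's call changed. Levels have no measured background, so that differences of dim probe sets have no known floor.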
